A study of Mus musculus with 8 samples.

Results

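Mitochondria keep ribosomes of their own, which translate the few respiratory-chain proteins still encoded in mitochondrial DNA. The ribosomal RNAs come from that same DNA, whereas all of the ribosomal proteins are encoded in the nucleus, made in the cytosol and imported. Heart muscle depends on their product, because the respiratory complexes that supply its ATP can be built only when mitochondrial and nuclear subunits are both made. The genes described here are the mitochondrial ribosomal protein genes, taken as every gene with a single symbol that begins with Mrpl (large subunit) or Mrps (small subunit) followed by a number. There were 77 of them among the 19938 genes with a single symbol, and 85 probe sets of the 35556 in the deposited table measured them. Where several probe sets measured a gene, the one of highest mean level stands for it.

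The hearts came from male CH3 mice aged 8 to 10 weeks and weighing 25 to 30 g. The DJ-1 group (4 mice) received recombinant DJ-1 protein, and the placebo group (4 mice) received phosphate-buffered saline (PBS), in both cases 1 hour before ligation of the left anterior descending (LAD) artery of the heart. DJ-1 is the product of Park7, a small protein that senses oxidants. Both groups then underwent 45 minutes of occlusion and 2 hours of reperfusion, so no heart was free of ischaemia and the comparison is between treatments of injured hearts. Total RNA of myocardial tissue (100 ng, with an RNA integrity number above 7) was hybridised to 1 Affymetrix whole-transcript array per heart. Values are log2 expression levels, and every difference is DJ-1 minus placebo on that scale.

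The 12 ventricular cardiomyocyte markers measured had mean levels of 11.3 to 13.9, so the markers of the labelled tissue were present. Array medians lay between 5.25 and 5.35, and DJ-1 replicates 3 and 4 stood apart on the first principal component of all genes, at -19.6 and -23.5, where the other 6 arrays lay between -5.31 and 14.98. Counts over the 77 genes, and the sign of each gene named for its difference where it turned, are also given without both arrays. Neutrophil markers averaged higher in DJ-1 than in placebo hearts for 13 of 13 genes measured, of 15 listed (median difference 0.74). The mean levels of these markers were 3.86 to 8.85, with 12 of 13 above the background level given below, and none passed the test. Their mean deviation from each gene's own mean ran from -0.47 to 1.07 in DJ-1 hearts and from -1.48 to 0.79 in placebo hearts. Fibroblast markers averaged lower in DJ-1 hearts for 11 of 12 genes (median difference -0.085). The 4 erythroid markers measured, of 11 listed and 3 of them above background, averaged higher in DJ-1 hearts (median difference 0.34). Endothelial markers averaged lower for 8 of 12 genes (median -0.032), and monocyte and macrophage markers higher for 6 of 11 (median 0.017). Groups did not overlap for 1 of 12 fibroblast markers (Gsn) and 1 of 4 erythroid markers (Slc4a1), against 3.22% of all genes. In the other marker lists this held for 0 genes. None of these markers passed either, and the part of these lists in the values below was not tested. In whole tissue, fewer cells of a type and less RNA per cell cannot be told apart. All 77 genes lay above the background level of 4.74, the 95th percentile of 1027 olfactory receptor genes, with a lowest mean of 5.88 for Mrps12. On placement, 50 of the proteins belong to the large subunit and 26 to the small subunit. The remaining gene, Mrps36, was named as a small-subunit protein, and its product has since been assigned to the 2-oxoglutarate dehydrogenase complex. Mrps30 and Mrps18a are counted with the large subunit, where their products sit in spite of their names. Mrpl53 shared its probe set with another gene and was left out.

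Promoters of these genes are known in other work to hold sites for factors that govern many nuclear genes for mitochondria. A promoter window in RefSeq (build GRCm38.p6, 250 bases before to 50 after the start) was held for 68 of the 77 genes, with 74 windows in all. Each window was searched on both strands for CCGGAAG, the core bound by GABP and other ETS factors, TGCGCA, a core of the site of nuclear respiratory factor 1 (NRF1), AAGATGG, a core of the YY1 site, and CACGTG, the E-box bound by MYC and related factors. The ETS and YY1 letters can share the bases AAG, and a match is a description of the sequence only. The 4 promoters below are shown because Mrps18a was the only gene with all 3 of the ETS, NRF1 and YY1 letters, Mrpl46 shares its start region with a gene of the other subunit, Mrps12 shares its own with the enzyme that charges a mitochondrial tRNA, and Mrpl18 was the only gene whose levels separated the groups. Capitals mark the motif letters, except in Mrpl46, where no motif was found and capitals run from the start base of Mrps11 to that of Mrpl46.
Mrps18a (chr17:46110754-46111053, plus strand): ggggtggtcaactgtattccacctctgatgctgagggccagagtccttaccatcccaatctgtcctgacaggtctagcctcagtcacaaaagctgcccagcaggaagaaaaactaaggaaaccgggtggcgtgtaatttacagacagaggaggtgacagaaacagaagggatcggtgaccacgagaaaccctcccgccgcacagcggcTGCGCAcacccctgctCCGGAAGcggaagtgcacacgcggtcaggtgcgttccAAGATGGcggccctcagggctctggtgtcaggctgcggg
Mrpl46 (chr7:78783040-78783339, minus strand): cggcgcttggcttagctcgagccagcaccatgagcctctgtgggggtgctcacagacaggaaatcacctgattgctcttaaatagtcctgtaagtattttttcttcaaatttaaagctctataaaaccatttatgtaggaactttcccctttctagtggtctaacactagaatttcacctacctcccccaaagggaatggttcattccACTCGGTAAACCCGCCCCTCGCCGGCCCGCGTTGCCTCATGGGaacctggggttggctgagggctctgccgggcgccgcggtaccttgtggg
Mrps12 (chr7:28741772-28742071, minus strand): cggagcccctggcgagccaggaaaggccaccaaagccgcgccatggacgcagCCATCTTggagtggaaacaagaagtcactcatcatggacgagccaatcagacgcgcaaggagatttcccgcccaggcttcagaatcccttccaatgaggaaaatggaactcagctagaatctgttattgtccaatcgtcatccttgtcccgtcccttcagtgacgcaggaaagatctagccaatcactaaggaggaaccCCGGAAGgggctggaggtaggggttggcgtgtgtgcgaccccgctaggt
Mrpl18 (chr17:12916042-12916341, minus strand): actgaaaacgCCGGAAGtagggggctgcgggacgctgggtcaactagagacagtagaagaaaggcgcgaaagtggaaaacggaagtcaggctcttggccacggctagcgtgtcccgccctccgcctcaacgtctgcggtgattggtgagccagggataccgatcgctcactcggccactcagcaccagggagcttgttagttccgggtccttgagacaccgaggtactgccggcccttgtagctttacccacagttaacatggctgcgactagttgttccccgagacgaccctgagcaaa

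The ETS letters stood in the windows of 25 of 68 mitochondrial ribosomal protein genes (36.8%), against 17.8% of the 10608 coding genes above background and 9.93% of all 27025 genes with a window. The NRF1 letters stood in 21 (30.9%), against 14.6% of coding genes above background and 8.79% of all genes. The YY1 letters stood in 13 (19.1%), against 7.87% and 7.28%. The E-box stood in 5 (7.35%), against 11.3% and 8.09%. At least 1 of the ETS, NRF1 and YY1 letters was present in 43 of the 68 genes, and 15 had more than 1 of them. These shares were not tested, and the windows of neighbouring genes can overlap.

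Many of the genes were arranged head to head with another gene, that is, on opposite strands with start sites at most 1000 bases apart and transcription running away from each other. A protein-coding partner of this kind was found for 24 of 68 genes (35.3%), against 11.4% of the 10608 coding genes above background. In 1 pair both partners are mitochondrial ribosomal proteins: Mrpl46, of the large subunit, and Mrps11, of the small subunit, start 42 bases apart, the stretch in capitals above. Several partners act in mitochondria too. Mrps12 is paired with Sars2, the mitochondrial seryl-tRNA synthetase (147 bases), Mrpl43 with Twnk, the helicase of mitochondrial DNA (116 bases), and Mrpl47 with Ndufb5, a subunit of respiratory complex I (308 bases). Mrpl18 is paired with Tcp1, a subunit of the cytosolic chaperonin (238 bases), and Mrpl32 with the proteasome subunit gene Psma2 (205 bases).

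**Figure D1:**
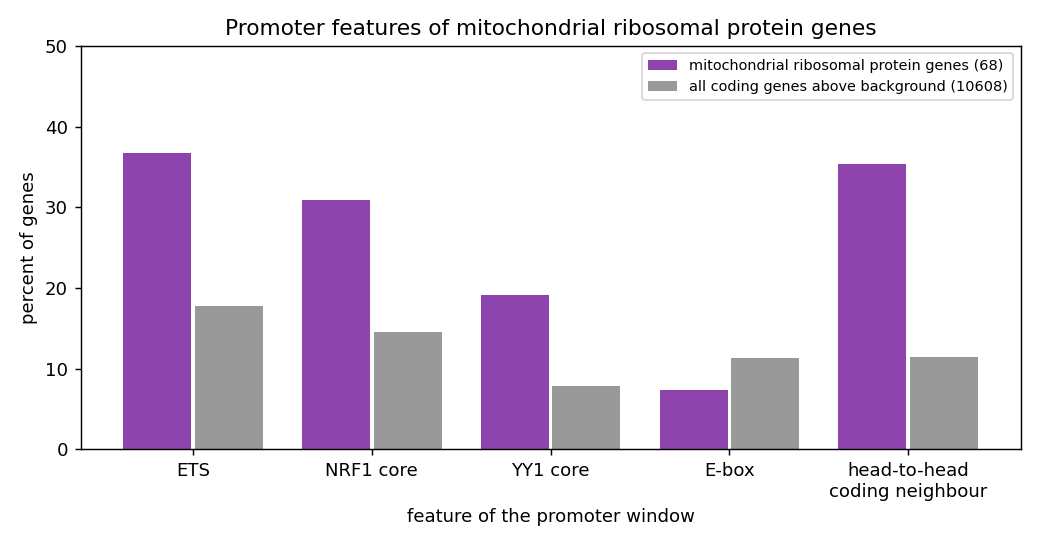
Percent of genes (vertical axis) whose promoter window holds each set of motif letters or that have a protein-coding head-to-head neighbour, for 68 mitochondrial ribosomal protein genes (purple) and 10608 coding genes above background (grey). The ETS, NRF1 and YY1 letters and the head-to-head arrangement were more frequent among the mitochondrial ribosomal protein genes, at 36.8%, 30.9%, 19.1% and 35.3%, and the E-box was not, at 7.35%.

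The comparison of DJ-1 with placebo hearts asked whether pre-treatment altered the transcripts of the mitochondrial translation machinery in reperfused myocardium. None of the 77 genes passed an adjusted p of 0.05 (limma with Benjamini-Hochberg adjustment over all 19938 genes, of which 0% passed), and the lowest adjusted p among them was 0.824. At an unadjusted p under 0.05 there were 0 of 77, against 5.99% of all genes. The differences were small: they ran from -0.20 (Mrps26) to 0.16 (Mrpl21), and 3418 of the 19938 genes differed by more than any of the 77. The median size of a difference, regardless of sign, was 0.048, against 0.093 over all genes and 0.084 over the 13693 genes above background. The median difference was 0.010, against 0.0082 over all genes and -0.014 over genes above background. Of the 77, 47 averaged higher in DJ-1 than in placebo hearts (61.0%), against 52.5% of all genes and 45.4% of genes above background. That split depended on scaling: with each array centred on its median, 24 of the 77 were higher in DJ-1 hearts, and 40.4% of all genes were. With quantile normalization 53 of the 77 were higher, and 51.1% of all genes were. The split also depended on single hearts, with 31 higher without DJ-1 replicate 1, and 60 were higher without DJ-1 replicates 3 and 4.

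The arrays nevertheless set a bound on each of these genes taken singly, with the deposited scaling and the probe set used. The 95% confidence interval of 76 of the 77 lay wholly within 0.5 on either side of 0, and the remaining interval, of Mrps26, reached -0.501. The lower ends correspond to 0.707 times the placebo level at the most extreme and the upper ends to 1.37 times, for Mrpl4. The median interval extended 0.229 to each side. The bound moved with these choices: the second probe set of Mrpl27 had an interval from -0.51 to 0.052. With arrays centred on their medians, Mrps26 differed by -0.24. Large-subunit genes had a median difference of 0.012 (33 of 50 higher) and small-subunit genes 0.0094 (14 of 26 higher). Neither sign was stable: the large-subunit median was -0.0045 without DJ-1 replicate 1, the small-subunit median was -0.036 without placebo replicate 2, and with arrays centred on their medians they were -0.030 and -0.033. With quantile normalization the large-subunit and small-subunit medians were 0.035 and 0.036.

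**Figure D2:**
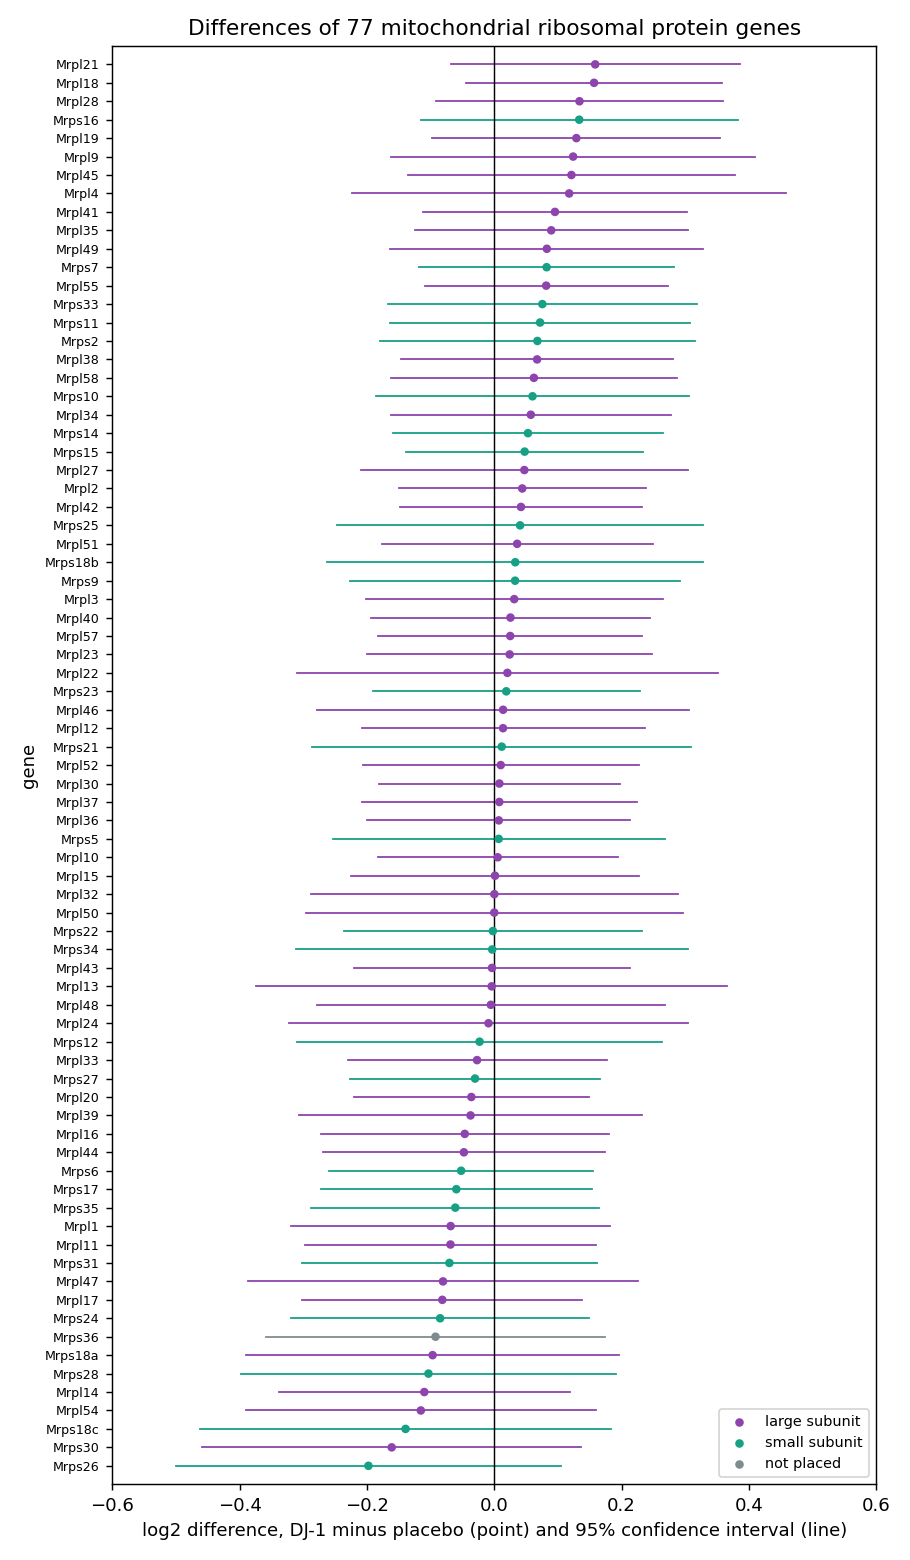
Log2 difference, DJ-1 minus placebo (horizontal axis), of each of the 77 genes (vertical axis, sorted), with points for the estimate and lines for the 95% confidence interval, coloured by subunit. Every interval includes 0, the estimates lie between -0.20 and 0.16, and both subunits have estimates on either side of 0.

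Mrpl18 was the only gene whose groups did not overlap, 1 of 77, against 3.22% of all genes (1.54% with DJ-1 higher and 1.68% with DJ-1 lower). Its product is a large-subunit protein, and the human protein has been linked to import of ribosomal RNA and, in heat stress, to translation of HSP70 in the cytosol. Its levels were 9.17, 9.004, 8.95 and 8.88 in DJ-1 replicates 1 to 4, against 8.85, 8.87, 8.84 and 8.82 in placebo replicates 1 to 4. The lowest DJ-1 heart therefore stood just above the highest placebo heart, and the placebo hearts lay close together. The difference was 0.16 (SE 0.092, 95% confidence interval -0.044 to 0.36) and did not pass (limma, adjusted p = 0.824), and it was 0.10 without DJ-1 replicate 1. Its head-to-head neighbour Tcp1 differed by 0.060 (SE 0.097). Over the measured head-to-head partners of all members, differences ran from -0.21 (Mitd1, partner of Mrpl30, SE 0.13) to 0.41 (Eme1, partner of Mrpl27, SE 0.12), and none passed.

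The other genes of smallest p on the higher side overlapped between groups. Mrpl21, a large-subunit protein with a bacterial counterpart, stood at 7.64, 7.44, 7.35 and 7.58 in DJ-1 hearts, against 7.20, 7.28, 7.40 and 7.49 in placebo hearts. Only DJ-1 replicates 1 and 4 lay above all placebo hearts, and the difference was 0.16 (SE 0.10). Mrpl28 had levels of 8.57, 8.54, 8.69 and 8.73 in DJ-1 hearts, against 8.53, 8.28, 8.56 and 8.63 in placebo hearts. Its difference of 0.13 (SE 0.10) was 0.059 without placebo replicate 2, the lowest heart. Mrpl19 differed by 0.13 (SE 0.10) and Mrpl45, whose product lies at the tunnel exit and tethers the ribosome to the inner membrane, by 0.12 (SE 0.12), and in both DJ-1 replicate 1 alone lay above all placebo hearts. Without that heart the differences were 0.081 for Mrpl19 and 0.042 for Mrpl45. Mrps16, a small-subunit protein mutated in a human mitochondrial disease, stood at 8.33, 8.24, 8.54 and 8.31 in DJ-1 hearts, against 8.41, 8.05, 8.35 and 8.08 in placebo hearts (difference 0.13, SE 0.11, and 0.072 without DJ-1 replicate 3).

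On the lower side, the widest differences came with low values in DJ-1 replicate 4. Mrps26, a small-subunit protein particular to mitochondria, stood at 6.88, 6.69, 6.75 and 6.24 in DJ-1 hearts, against 6.71, 6.87, 7.03 and 6.75 in placebo hearts. The difference was -0.20 (SE 0.14), and it was -0.065 without DJ-1 replicate 4. Mrps30 stood at 6.54, 6.47, 6.15 and 5.92 in DJ-1 hearts, against 6.37, 6.33, 6.57 and 6.45 in placebo hearts. DJ-1 replicates 3 and 4 were the low hearts, and the difference of -0.16 (SE 0.14) was -0.046 without DJ-1 replicate 4 and turned to 0.072 without both of them. Mrps18c stood at 8.02, 8.08, 7.87 and 7.47 in DJ-1 hearts, against 7.82, 7.94, 8.29 and 7.95 in placebo hearts. Its difference of -0.14 (SE 0.15) was -0.0097 without DJ-1 replicate 4. Mrpl14, the large-subunit protein that binds the assembly factor Malsu1, differed by -0.11 (SE 0.10), Mrpl54 by -0.12 (SE 0.13) and Mrpl17 by -0.082 (SE 0.10), and in each the groups overlapped. The difference of Mrpl14 was -0.066 without placebo replicate 3, that of Mrpl54 was -0.039 without DJ-1 replicate 3, and that of Mrpl17 was -0.0069 without DJ-1 replicate 4.

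A trio of genes, Mrps18a, Mrps18b and Mrps18c, descends from the bacterial S18 protein, and their products occupy different places. Mrps18c takes the place of the bacterial protein in the small subunit, Mrps18b sits elsewhere in the small subunit, and Mrps18a sits in the large subunit. Mrps18a stood at 9.01, 8.89, 9.21 and 8.72 in DJ-1 hearts, against 9.28, 8.76, 9.07 and 9.09 in placebo hearts (difference -0.097, SE 0.13, and -0.018 without DJ-1 replicate 4). Mrps18b stood at 9.05, 9.16, 9.07 and 8.84 in DJ-1 hearts, against 9.34, 8.70, 9.02 and 8.92 in placebo hearts (difference 0.033, SE 0.14). Neither separated the groups, and in both genes the lowest and the highest placebo hearts, replicates 2 and 1, lay further apart than the group means did.

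Members known for their role in the ribosome or in disease had levels that overlapped between groups. Mrpl12, the stalk protein that recruits translation factors, had a mean of 9.35 ± 0.12 in DJ-1 hearts and 9.33 ± 0.13 in placebo hearts (SD, n = 4 each), with a difference of 0.014 (95% confidence interval -0.21 to 0.24). Mrps12, at the site where codons are read, stood at 5.87 ± 0.28 in DJ-1 hearts and 5.90 ± 0.081 in placebo hearts (SD, n = 4 each), and its partner Sars2 differed by -0.049 (SE 0.12). Mutations of MRPL3 and MRPL44 cause cardiomyopathy in people. Mrpl3 stood at 9.32 ± 0.17 in DJ-1 hearts and 9.28 ± 0.10 in placebo hearts (SD, n = 4 each), and Mrpl44 at 7.01 ± 0.10 in DJ-1 hearts and 7.06 ± 0.14 in placebo hearts (SD, n = 4 each). Mrps22, also mutated in human disease that can affect the heart, differed by -0.0021 (SE 0.11). Mrps36, outside the ribosome, differed by -0.092 (SE 0.12), and by -0.015 without DJ-1 replicate 4. Mrpl46 and Mrps11, which share a start region, differed by 0.014 (SE 0.13) and 0.072 (SE 0.11), and the highest DJ-1 heart was replicate 2 for Mrpl46 (7.97) and replicate 1 for Mrps11 (7.59).

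The spread between hearts differed among the genes. The pooled SD within groups ran from 0.0554 (Mrpl20) to 0.291 (Mrpl13), with a median of 0.132, against 0.152 over genes above background. Mrpl20, Mrps15 and Mrpl30 were the steadiest: Mrpl20 stood at 8.72, 8.64, 8.65 and 8.54 in DJ-1 hearts, against 8.64, 8.68, 8.67 and 8.71 in placebo hearts. Mrpl13, Mrpl4 and Mrpl22 varied most. Mrpl13 stood at 7.94, 8.02, 7.95 and 7.36 in DJ-1 hearts, against 7.55, 7.63, 8.08 and 8.03 in placebo hearts. DJ-1 replicate 4 and placebo replicates 1 and 2 were the low hearts, while the group means differed by only -0.0040. Mrpl4 stood at 9.49, 9.55, 9.85 and 9.83 in DJ-1 hearts, against 9.84, 9.12, 9.56 and 9.74 in placebo hearts, with placebo replicate 2 lowest. Mrpl22, a protein of the exit tunnel, stood at 7.13, 6.98, 6.39 and 6.56 in DJ-1 hearts, with all 4 placebo hearts between 6.68 and 6.82.

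**Figure D3:**
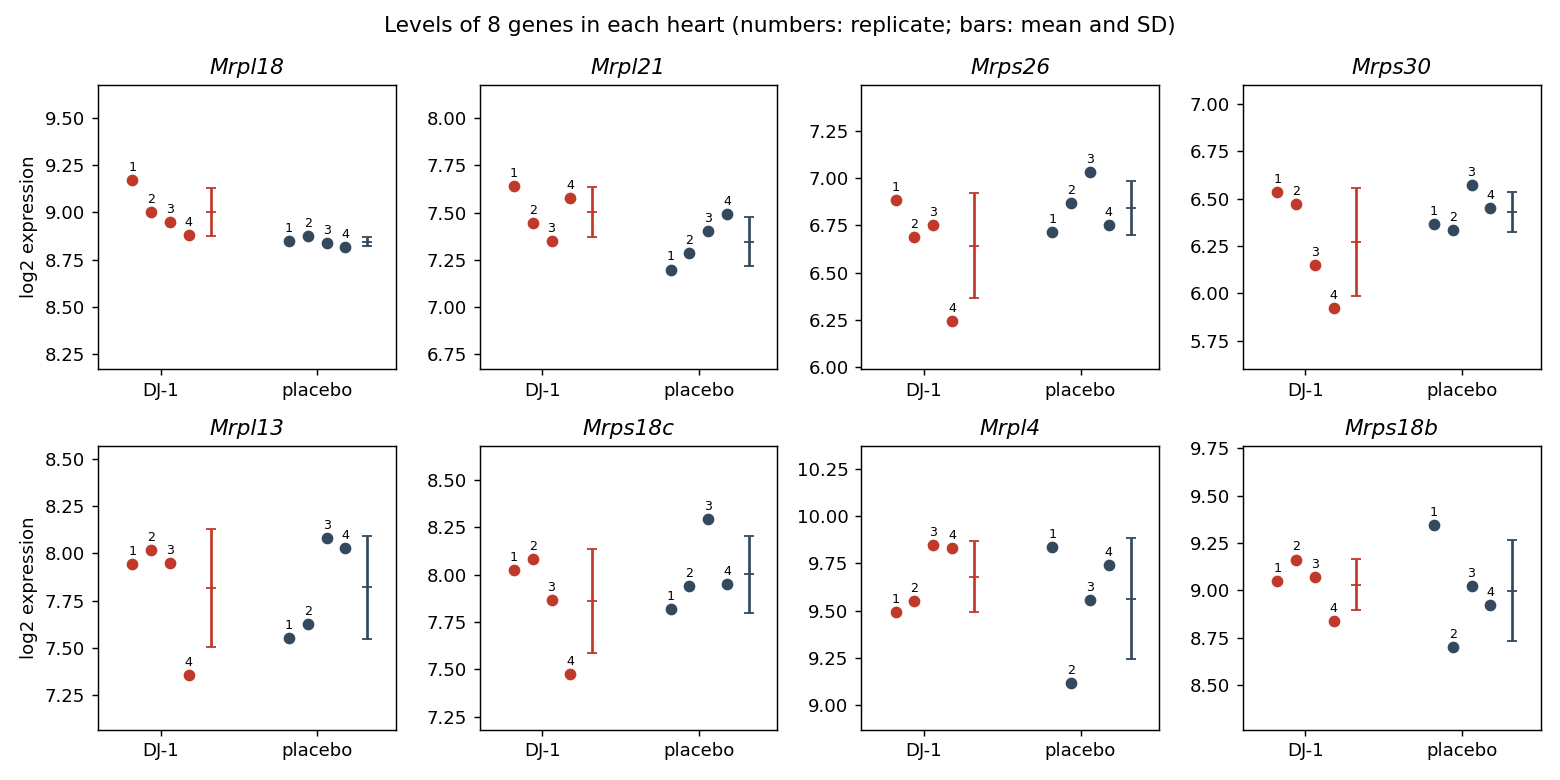
Log2 expression (vertical axis) of 8 genes in each heart, with DJ-1 hearts in red and placebo hearts in dark blue, numbered by replicate, and bars for the mean and SD of 4 hearts. Only Mrpl18 has all DJ-1 hearts above all placebo hearts. DJ-1 replicate 4 is lowest in Mrps26, Mrps30, Mrpl13 and Mrps18c, and placebo replicate 2 is lowest in Mrpl4 and Mrps18b.

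Differences between single hearts were shared by many of the genes. Each gene's level was set against its own mean over the 8 hearts, and these deviations were averaged over the 77 genes. The averages were 0.116, 0.0095, -0.029 and -0.079 in DJ-1 replicates 1 to 4, against -0.0028, -0.056, 0.033 and 0.0080 in placebo replicates 1 to 4. The DJ-1 hearts therefore spanned the placebo hearts on both sides. In DJ-1 replicate 1, 67 of the 77 genes (87.0%) were above their own mean, where 51.6% of all genes were, and 32 of the 77 (41.6%) had their highest level in that heart, where 11.7% of all genes did. No gene (0 of 77) had its lowest level there, where 9.60% of all genes did. In DJ-1 replicate 4, 29 of the 77 (37.7%) were above their own mean, where 53.5% of all genes were. In placebo replicate 2, 28 of the 77 (36.4%) were, where 45.1% of all genes were. Among genes above background the share was 53.4% in DJ-1 replicate 1, 45.8% in DJ-1 replicate 4 and 49.3% in placebo replicate 2. Placebo replicate 2 held the lowest level of 19 of the 77 (24.7%), against 14.2% of all genes, and DJ-1 replicate 4 of 18 (23.4%), against 15.5%. With quantile normalization the count was still high in DJ-1 replicate 1, at 59 of 77, and low in placebo replicate 2, at 25 of 77. In DJ-1 replicate 4 it was 44 of 77 with quantile normalization and 15 of 77 with arrays centred on their medians, so the position of that heart depended on scaling.

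The pattern in DJ-1 replicate 1 was seen in both subunits, with 45 of 50 large-subunit and 21 of 26 small-subunit genes above their own mean. Cytosolic ribosomal protein genes were also high in this heart, with 52 of 57 above their own mean. The families were not alike in other hearts. Placebo replicate 1 had 9 of 57 cytosolic but 38 of 77 mitochondrial ribosomal protein genes above their own mean, and placebo replicate 2 had 48 of 57 cytosolic but 28 of 77 mitochondrial ones. The difference between the families was not tested. In DJ-1 replicate 1 the ventricular cardiomyocyte markers had a mean deviation of -0.094 and the neutrophil markers of 0.79. In placebo replicate 2 the cardiomyocyte markers were at -0.057, the neutrophil markers at 0.79 and the 77 genes at -0.056. In DJ-1 replicate 2 these values were -0.042, 1.07 and 0.0095. Fibroblast markers were at 0.00045 in DJ-1 replicate 1 and 0.15 in placebo replicate 2. The part of cell content in the pattern was not tested.

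**Figure D4:**
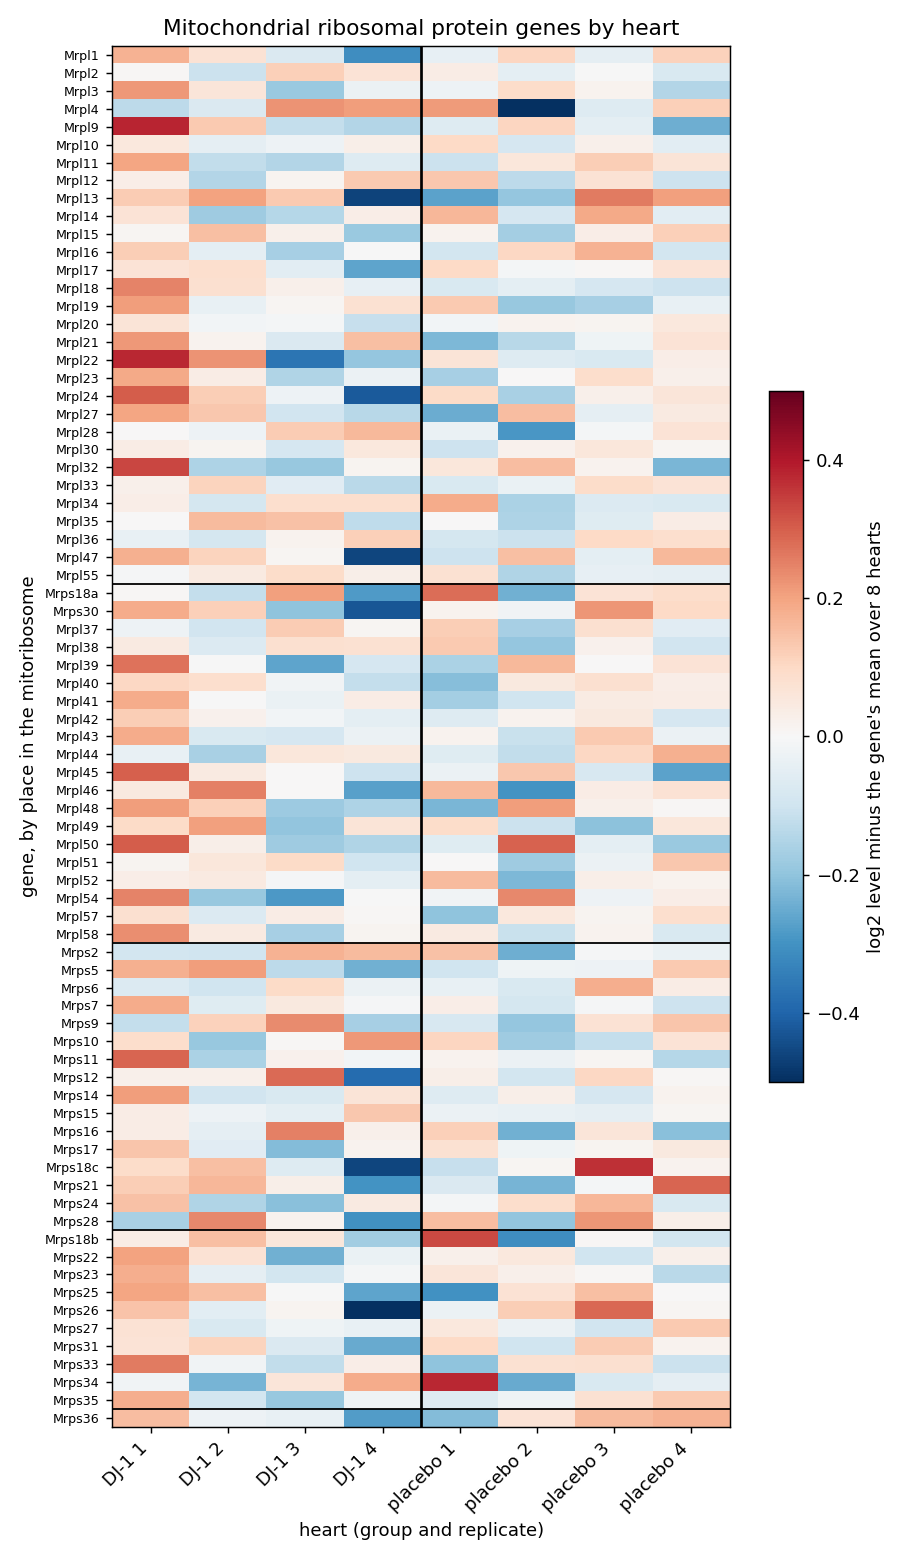
Log2 level of each of the 77 genes (rows, grouped by place in the ribosome, with Mrps36 last) in each heart (columns, DJ-1 left and placebo right), minus the gene's mean over 8 hearts. Colours run from blue at -0.5 to red at 0.5 and are the same beyond these ends. DJ-1 replicate 1 is red for most rows (67 of 77 above their mean), while DJ-1 replicate 4 and placebo replicate 2 mix strong blue rows with pale or red ones.

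Not all of the genes moved together. Over the 8 hearts, the median Pearson correlation between pairs of the 77 genes was 0.174 (2926 pairs), against 0.007 between genes above background and 0.457 among the 57 cytosolic ribosomal protein genes. This is a description, since all pairs share the same 8 arrays. It was 0.193 within the large subunit, 0.143 within the small subunit and 0.162 between them. Of the pairs, 23.3% had a correlation above 0.5 and 7.04% below -0.5, where 13.4% and 12.5% of pairs of genes above background did. The first principal component of the 77 genes held 37.1% of their variance and placed DJ-1 replicate 1 (1.07) and DJ-1 replicate 4 (-1.34) at opposite ends, with the placebo hearts between -0.661 and 0.534. On it, 54 genes lay on the side of DJ-1 replicate 1, with Mrps18c, Mrps30 and Mrpl47 furthest out, and 23 on the other, with Mrpl4, Mrps34 and Mrps2 furthest out. These genes were picked after their values were seen. Mrps34 stood at 7.20, 6.99, 7.28 and 7.40 in DJ-1 hearts, against 7.60, 6.97, 7.14 and 7.17 in placebo hearts.

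A second probe set was present for 8 genes. Both differences had the same sign for Mrpl23 (0.024 and 0.045), Mrpl41, Mrpl51, Mrps33 and Mrps36. They had opposite signs for Mrpl27 (0.047 and -0.23), Mrpl47 (-0.080 and 0.053) and Mrps5 (0.0071 and -0.091), the first value being that of the probe set used. All of these intervals included 0. RefSeq lists, by name, pseudogene copies of Mrpl23, Mrpl27, Mrpl48 and Mrps36, and a probe set can take signal from such copies, so the levels of these genes are uncertain. Copies under other names were not searched for, so levels of other genes can be uncertain too.

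The rest of the mitochondrial translation machinery was examined in the same fit, with genes of each list taken as written. The ribosomal proteins with other names numbered 4 (Dap3, Ptcd3, Chchd1 and Gadd45gip1), 2 higher and 2 lower in DJ-1 hearts, and none passed (lowest adjusted p = 0.864, limma). All 4 were above their own mean in DJ-1 replicate 1, 0 of 4 in DJ-1 replicate 4 and all 4 in placebo replicate 4. Assembly factors numbered 26, 13 of them higher in DJ-1 hearts, with a median difference of -0.0028. The gene of smallest p was Mettl17, a factor of small-subunit assembly, at 6.93, 6.95, 6.84 and 6.89 in DJ-1 hearts, against 6.78, 6.51, 6.55 and 6.75 in placebo hearts. These values did not overlap, which held for 1 of the 26 assembly factors (3.85%), near the 3.22% of all genes. The difference of 0.25 (SE 0.095) did not pass (limma, adjusted p = 0.824). Mrm3, which methylates the large ribosomal RNA, differed by 0.18 (SE 0.10).

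Translation factors numbered 14, with 7 higher in DJ-1 hearts and a median difference of -0.0021. Their genes of smallest p were the release factor Mtrf1 (-0.28, SE 0.14) and Lrpprc, which stabilises mitochondrial messenger RNAs (-0.17, SE 0.091). Mitochondrial tRNA synthetases and related enzymes numbered 19, with 6 higher and a median of -0.023, led by the prolyl enzyme gene Pars2 (-0.15, SE 0.093) and the glutamyl enzyme gene Ears2 (-0.13, SE 0.098). Genes for transcription and replication of mitochondrial DNA numbered 11, with 2 higher and a median of -0.048, led by Mterf2 (-0.21, SE 0.17) and the topoisomerase gene Top1mt (-0.094, SE 0.10). No gene of these lists passed an adjusted p of 0.05 (limma). Cytosolic ribosomal protein genes had a median difference of -0.0062 (26 of 57 higher), led by Rps15a (0.30, SE 0.12) and Rps14 (-0.14, SE 0.11).

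**Figure D5:**
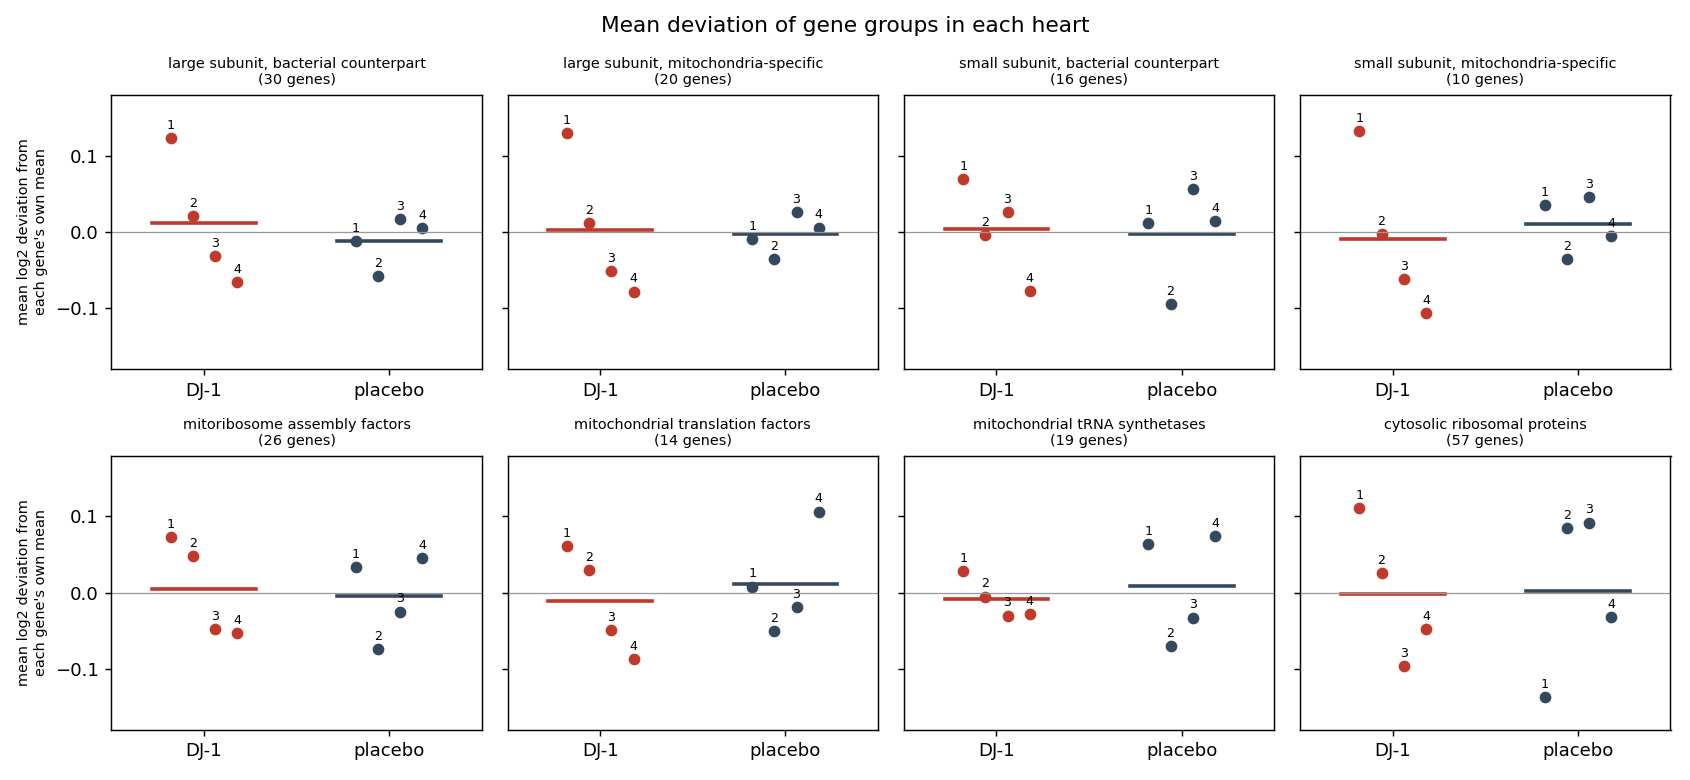
Mean log2 deviation of each gene group from its genes' own means over 8 hearts (vertical axis) in each heart, with DJ-1 hearts in red on the left of each panel and placebo hearts in dark blue on the right, numbered by replicate, and lines for group means. DJ-1 replicate 1 is the highest heart in all 4 groups of mitochondrial ribosomal proteins, and DJ-1 and placebo hearts overlap in every panel.

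Of 10 regulators of nuclear genes for mitochondria, 3 averaged higher in DJ-1 than in placebo hearts (median difference -0.035). The groups did not overlap for 2 of the 10, against 3.22% of all genes in either direction. Both were lower in DJ-1 hearts, as were 1.68% of all genes, and with 10 genes this count was not tested. Nrf1, the factor whose letters are described above, stood at 6.34, 6.26, 6.38 and 6.29 in DJ-1 hearts, against 6.44, 6.44, 6.39 and 6.52 in placebo hearts. Its difference was -0.13 (SE 0.084), and its highest DJ-1 heart stood just below its lowest placebo heart. Ppargc1b, the coactivator PGC-1beta, stood at 7.14, 7.11, 7.31 and 7.05 in DJ-1 hearts, against 7.53, 7.42, 7.47 and 7.53 in placebo hearts, a difference of -0.34 (SE 0.091). Neither passed (limma, adjusted p = 0.832 for Nrf1 and 0.824 for Ppargc1b). Ppargc1a differed by 0.26 (SE 0.15). Among the 68 mitochondrial ribosomal protein genes with a window, the 21 with the NRF1 letters had a median difference of 0.019, against 0.012 for the other 47. The 25 with the ETS letters had 0.019, against 0.0081 for the other 43. The order was the opposite for the 13 with the YY1 letters, at 0.0080 against 0.014 for the other 55, and for the 5 with the E-box, at 0.0072 against 0.014 for the other 63.

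Transcripts of mitochondrial DNA, which these ribosomes translate, were measured for COX2 and ND3 under a single symbol. They were read after the other results were known. The 2 probe sets of COX2, a core subunit of cytochrome oxidase, differed by -0.083 (SE 0.090) and -0.079 (SE 0.091), and those of ND3, a subunit of complex I, by -0.091 (SE 0.089) and -0.069 (SE 0.092). DJ-1 replicate 4 was the lowest heart in all 4 probe sets, for example 13.18 for COX2, where the other hearts lay between 13.29 and 13.46. The Park7 transcript, which reports the mouse's own gene and not the protein given, was at 11.02 ± 0.15 in DJ-1 hearts and 11.03 ± 0.14 in placebo hearts (SD, n = 4 each).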

How the data were processed

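Myocardial RNA of 4 DJ-1 and 4 placebo hearts was measured on 1 array each, with groups taken from the sample titles, and each title was taken as a separate mouse. The deposited log2 values were made by the authors with RMA (robust multi-array average, a method that summarises the probes of each probe set), per the submitters' processing notes. Software versions were not given in the sources used here. Of 35556 probe sets, 21789 carried a single gene symbol, and the probe set of highest mean was kept per gene (19938 genes).

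DJ-1 and placebo were compared with limma 3.58.1 in R 4.3.3 (lmFit and eBayes, two-sided, Benjamini-Hochberg over all 19938 genes), tested on simulated data. Background was the 95th percentile of olfactory receptor genes. Members and lists were chosen with earlier results of these data known. Cytosolic ribosomal proteins were taken by symbol, with kinases, binding proteins and pseudogenes removed by name. Genes named were those whose groups did not overlap, the 6 of smallest p in each direction, the 3 of largest and of smallest spread, 11 with a known place or human disease, and those whose probe sets differed in sign. In each other list any gene whose groups did not overlap was named, with the 2 of smallest p except in the cell type marker lists. Promoter sequences are RefSeq's (GRCm38.p6). No hybridisation batch was analysed here, and 4 arrays a group limit the precision. Alternatives covered scaling, filter, variance model, probe sets, a block for replicate number, and each array left out.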

Additional observations from a re-analysis of the deposited data

Results flagged for a closer look

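In the DJ-1 group, replicate 4 stood apart from the other hearts for Mrpl13, at 7.36, where the other 3 lay between 7.94 and 8.02. In the placebo group, replicate 1 stood apart for Mrpl40, at 9.39, where the other 3 lay between 9.63 and 9.68. Each was the only such gene of the 77 in its group. Chance sets about 1 in 20 groups of 4 samples apart in this way.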

How the results depend on the processing

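None of the 77 genes passed the adjusted p under any of 16 alternatives (limma; 0 called), while 1 (Mrpl18) had an unadjusted p under 0.05 with quantile normalization and with variances not moderated, and 3 (Mrpl18, Mrpl22 and Mrpl9) did without DJ-1 replicates 3 and 4, a setting chosen after seeing the data. Over all genes, 0 to 1 passed with a replicate left out, the 1 being Pramel27 without DJ-1 replicate 3. The replicate numbers gave no clear sign of pairing: deviations of same-numbered hearts correlated at 0.0045, 0.17, 0.18 and 0.0081, and only 1 of 4 numbers matched itself best. With 4 hearts a group this cannot exclude pairing. With the replicate block 0 genes were called. Both groups hold the same replicate numbers, so the block cannot change a difference, and the median of 0.010 was fixed by the design. The number of the 77 higher in DJ-1 hearts was 31 to 51 with a replicate left out and 24 with arrays centred on their medians, which moved the median of all genes to -0.034. With quantile normalization 53 were higher and the median difference of the 77 was 0.034. The median difference was -0.018 to 0.037 with a replicate left out, that of the large subunit was -0.0045 to 0.046 and that of the small subunit -0.036 to 0.018. The large-subunit median was 0.076 without DJ-1 replicates 3 and 4. Of 29 named genes, 11 kept their sign under every alternative. Not every alternative could turn a sign. The replicate block, the intensity trend, variances not moderated and the filter to genes above the median level leave each difference as it was. The mean of all probe sets can change only genes with several probe sets. Signs turned with quantile normalization for Mrpl13 (0.027) and Mrps22 (0.032). With centred arrays they turned for Mrpl22 (-0.022), Mrpl30 (-0.034), Mrps18b (-0.0093), Mrpl12 (-0.028), Mrpl3 (-0.011) and Mrps5 (-0.035). With the mean of all probe sets they turned for Mrpl27 (-0.092) and Mrps5 (-0.042). Without DJ-1 replicates 3 and 4 they turned for Mrps30 (0.072), Mrps18c (0.053), Mrpl17 (0.036), Mrpl13 (0.16), Mrpl4 (-0.042), Mrpl20 (0.0075), Mrps36 (0.019), Mrpl12 (-0.051), Mrps12 (0.016), Mrps22 (0.13) and Mrpl47 (0.10). With a replicate left out the ranges that crossed 0 were -0.094 to 0.15 for Mrpl13, -0.031 to 0.21 for Mrpl4, -0.10 to 0.15 for Mrpl22, -0.026 to 0.038 for Mrpl30, -0.065 to 0.15 for Mrps18b, -0.028 to 0.065 for Mrpl12, -0.12 to 0.10 for Mrps12, -0.036 to 0.098 for Mrpl3, -0.097 to 0.0036 for Mrpl44, -0.069 to 0.078 for Mrps22, -0.027 to 0.11 for Mrpl27, -0.15 to 0.059 for Mrpl47 and -0.061 to 0.089 for Mrps5. The cause of these turns was not tested.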
